A study of Mus musculus with 6 samples.

Results

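The nuclear factor I genes *Nfia*, *Nfib*, *Nfic* and *Nfix* had 14 of the 4114 Gli3 binding sites in the deposited list, which comes from chromatin immunoprecipitation followed by sequencing (ChIP-seq) of embryonic mouse cortex. A site was counted for a gene when its midpoint lay inside the gene body or within 100 kb of the gene-level transcription start site (TSS), which is the outermost start of the gene in the GENCODE M21 annotation of mm10. The ChIP-seq experiment used a Gli3 antibody on dissected wild-type cortices at embryonic day 15, with 3 ChIP libraries and 3 libraries of input, the sheared chromatin before the antibody is added. The cortex was not sorted, so that progenitors and neurons are mixed in it. For each site the list holds a position and a name and nothing else. It joins the ChIP libraries in 1 set, so no value per replicate, no error between replicates and no read depth can be given, and the tissue could not be checked against marker genes. The Nfi sites were compared with the 4099 sites on chromosomes 1 to 19, X and Y as a description, with no test.

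Nuclear factor I proteins are transcription factors that bind DNA as dimers through a domain encoded mostly by the second exon of each gene. In the developing cortex, Nfia, Nfib and Nfix promote the differentiation of radial glial cells and the switch toward glial production, and Nfia acts with Sox9 at the start of gliogenesis. Nfic is expressed widely and is best known for its part in tooth root formation. Gli3 acts in the cortex mainly as a transcriptional repressor, whose repressor form is reduced by Shh signaling. The Gli factors recognize a short sequence whose conserved bases are GACCACCCA, called the GLI core in the following.

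The sequences that carry the results are given first. They come from GRCm38, the assembly of mm10, and read 5′ to 3′ on the strand named. The first 3 show the 200 bases around the exact GLI core, in capitals, of the Nfi sites whose core lay in an intron. None of these stretches overlapped an exon of its gene.

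*Nfia* site 1, chr4:97839952-97840151, plus strand: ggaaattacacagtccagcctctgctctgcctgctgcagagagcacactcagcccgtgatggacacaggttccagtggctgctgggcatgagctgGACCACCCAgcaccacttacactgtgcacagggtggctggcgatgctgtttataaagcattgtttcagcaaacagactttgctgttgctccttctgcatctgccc

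*Nfib* site 1, chr4:82697227-82697426, minus strand: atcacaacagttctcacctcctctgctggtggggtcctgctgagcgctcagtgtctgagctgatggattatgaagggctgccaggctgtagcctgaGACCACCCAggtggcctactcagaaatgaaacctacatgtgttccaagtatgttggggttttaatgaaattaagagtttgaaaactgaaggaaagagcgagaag

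*Nfix* site 2, chr8:84793160-84793359, minus strand: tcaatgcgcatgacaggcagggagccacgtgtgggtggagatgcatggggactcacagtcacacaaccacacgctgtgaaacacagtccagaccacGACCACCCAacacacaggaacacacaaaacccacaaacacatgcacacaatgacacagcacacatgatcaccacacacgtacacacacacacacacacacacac

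The fourth exact core lay in the 3′ UTR of *Nfic*, and it is shown with 10 bases on either side. The next pair, shown in the same way, has the first 8 bases of the core and another base at position 9, where positions are counted from 1 at the 5′ end of the core.

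*Nfic* site 3, chr10:81399660-81399688, minus strand: cctcctccctGACCACCCAtcttggcccg

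*Nfia* site 3, A9C, chr4:97950848-97950876, minus strand: aggtccaccaGACCACCCCggggctgcca

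*Nfix* site 4, A9T, chr8:84742695-84742723, minus strand: ggctccgtgaGACCACCCTccacttacag

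Only *Nfib* and *Nfix* had a Gli3 site over the start of a protein-coding transcript. For *Nfix* the 250 bases just before the outermost start inside the site are shown, in which neither the GLI core nor the SP motif GGGCGGGG was found on either strand. The stretch overlapped no annotated exon of the gene.

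*Nfix* site 3, before the start of Nfix-203, chr8:84774370-84774619, minus strand: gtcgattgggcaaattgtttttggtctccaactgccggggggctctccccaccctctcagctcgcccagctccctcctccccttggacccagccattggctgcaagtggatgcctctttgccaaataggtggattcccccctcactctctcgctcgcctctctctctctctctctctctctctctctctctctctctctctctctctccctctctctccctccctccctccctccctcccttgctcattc

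This stretch had a GC content of 59.2% and 5 CpG dinucleotides, with a CpG ratio, observed over expected from its C and G, of 0.310. Bases marked as repeats in the assembly made up 55.6% of it.

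*Nfix* had the most Gli3 sites of the family by this rule. Under it *Nfix* had 6 sites, *Nfia* and *Nfic* had 3 each, and *Nfib* had 2. Counting only the sites whose nearest coding gene-level TSS was that of the Nfi gene left 2 sites each at *Nfix* and *Nfib*, so that *Nfix* no longer led. Of the 21938 protein-coding genes, 37.4% had at least 1 site, 13.3% had at least 2, 4.33% had at least 3 and 0.292% had at least 6. *Nfix* was thus among 64 coding genes with 6 or more sites, while the count of *Nfib* was reached by 2913 genes. Among the 5007 coding genes of 50 kb or more, 0.32% had 6 or more sites. The gene with the most sites was *Gm20388*, an annotated locus of 4435 kb with 47 sites, followed by *Gse1* with 22.

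**Figure D1:**
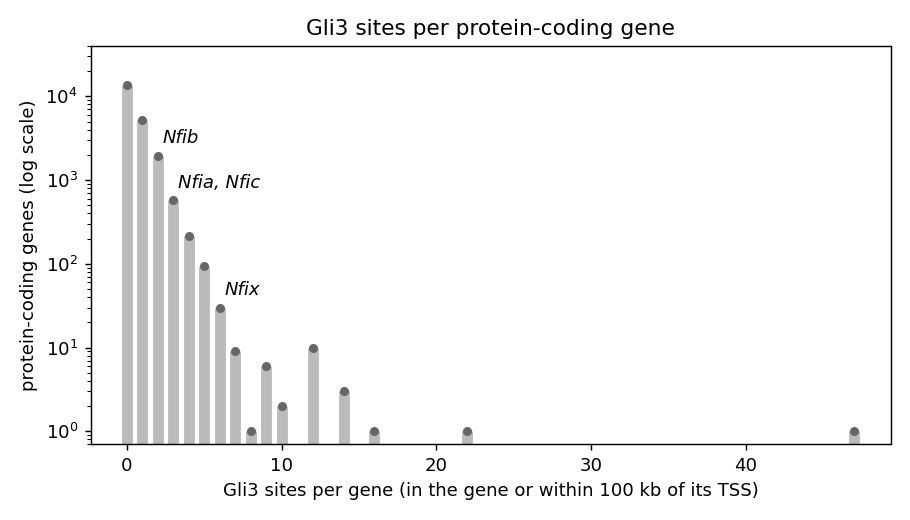
The number of Gli3 sites per protein-coding gene is on the x axis, and the number of genes with that count is on the y axis on a log scale. *Nfib* is 1 of 1964 genes with 2 sites, *Nfia* and *Nfic* are among 579 with 3, and *Nfix* is 1 of 30 with 6.

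The genes differ widely in length, and so did the density of their sites. *Nfix* (ENSMUSG00000001911.16) is 100 kb long and is transcribed from the minus strand (chr8:84699876-84800344). It had 2.99 sites per 100 kb of the interval searched, which is the gene body and the window around its TSS, and 99.7% of coding genes had a lower density. *Nfic* (ENSMUSG00000055053.18), also transcribed from the minus strand (chr10:81396186-81455635), is 59.5 kb long and had 1.50 sites per 100 kb, above 96.1% of coding genes. *Nfia* (ENSMUSG00000028565.18), the only one on the plus strand (chr4:97772734-98118874), is 346 kb long. Its density was 0.672 sites per 100 kb, above 87.4% of coding genes. *Nfib* (ENSMUSG00000008575.17), on the same chromosome but on the minus strand (chr4:82290173-82705750), is the longest at 416 kb and had 0.388 sites per 100 kb, above 64.3% of coding genes. As 37.4% of coding genes had any site and 35.7% were at least as dense as *Nfib*, few genes with a site had a lower density than *Nfib*.

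The sites also took unequal shares of the genes. They covered 18.3% of *Nfix*, a share that 5 of the 5007 coding genes of 50 kb or more reached, and 9.76% of *Nfic*, which 20 reached. They covered 1.57% of *Nfia* and 1.10% of *Nfib*, shares that 493 and 673 of those genes reached. The summed width of the sites was 20783 bp at *Nfix*, 5803 bp at *Nfic*, 5421 bp at *Nfia* and 4575 bp at *Nfib*.

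The Nfi sites lay inside the genes. The midpoint was in the gene body at 13 of 14 sites, in an intron at 11 of them and in an exon at 2. Over all pairs of a coding gene and a site made by the rule, 19.2% had the midpoint inside the gene. Long genes reach a larger share by construction, and *Nfia* and *Nfib* are longer than the 100 kb window beside the TSS. *Nfix*, which held 5 of the 13 sites, is slightly longer than it, at 100469 bp. The single site outside was *Nfix* site 1, 14484 bp upstream of the *Nfix* TSS and 7994 bp from that of *Dand5*, a neighboring gene that encodes an inhibitor of Nodal signaling. The nearest sites that the rule did not take were 103 kb from the gene-level TSS of *Nfia*, 712 kb from that of *Nfib*, 105 kb from that of *Nfic* and 103 kb from that of *Nfix*.

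**Figure D2:**
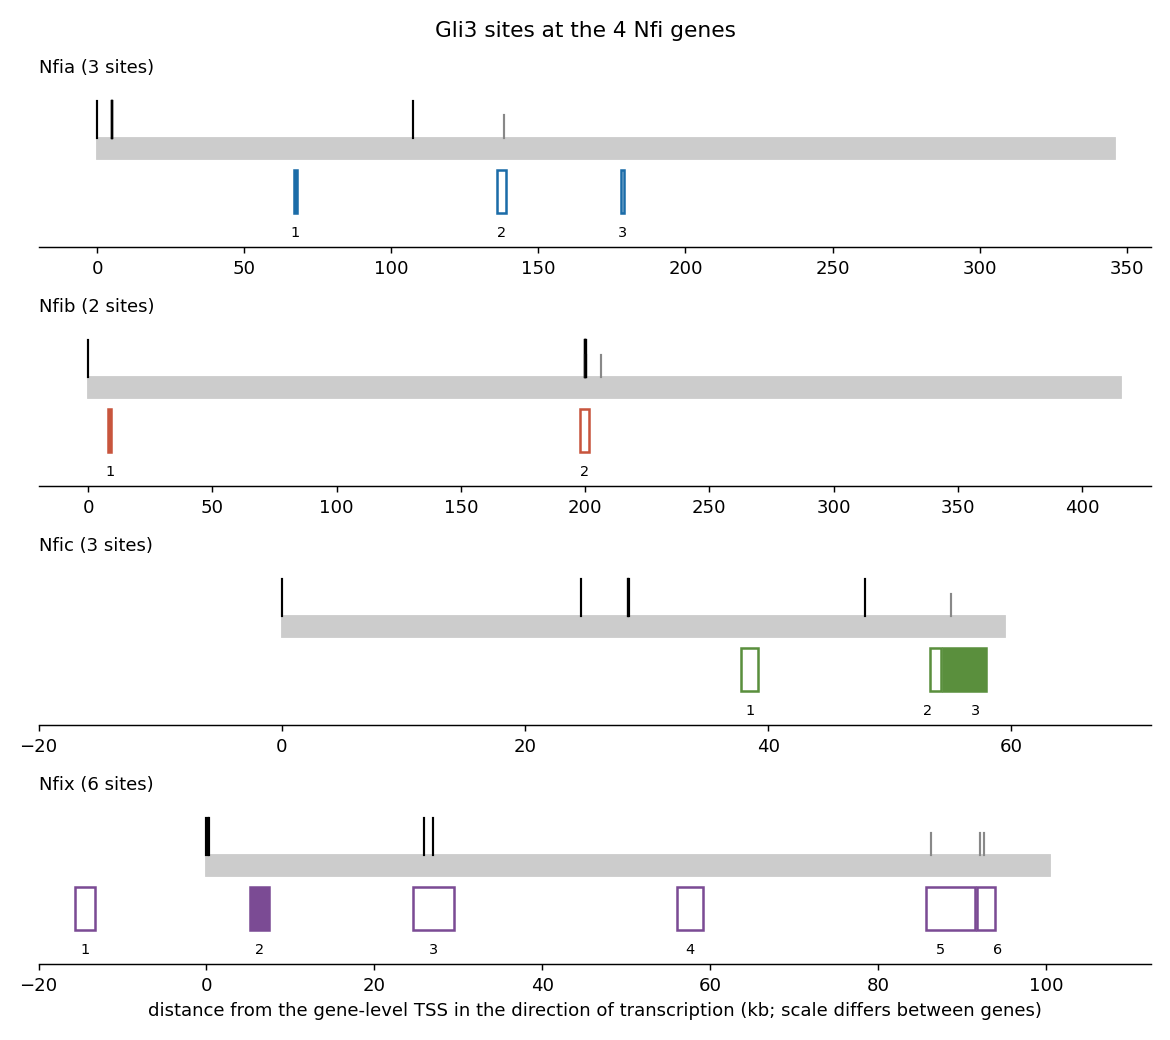
Each panel shows an Nfi gene as a gray bar and its Gli3 sites to scale as boxes below it, with the distance from the gene-level TSS in kb on the x axis, in the direction of transcription. Filled boxes hold an exact GLI core, tall black ticks are starts of protein-coding transcripts and short gray ticks are starts of other transcripts. No site covered position 0, and the sites of *Nfic* and *Nfix* with the highest numbers lay at the 3′ end of the gene.

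None of the 4 genes had its gene-level TSS inside a Gli3 site, and over all coding genes 6.22% had. The nearest site midpoint was 6332 bp from that TSS at *Nfix*, 8575 bp at *Nfib*, 38496 bp at *Nfic* and 67360 bp at *Nfia*. Starts further inside the genes were covered. Of 31 distinct annotated TSSs of the 4 genes, 13 lay in a site, against 5.66% over all coding genes. Of the 22 distinct starts of protein-coding transcripts, 5 lay in a site, against 6.29%. Each of the 4 genes had at least 1 annotated TSS in a site, and 7.46% of coding genes had. A gene with more annotated TSSs has more chances of this, and the Nfi genes had 7 or 8 distinct TSSs each. At *Nfia* and *Nfic* the only covered start was that of a noncoding transcript. TSSs of a gene that lie close together share a site, so these starts are not independent, and 11 of the 13 covered starts belonged to *Nfib* and *Nfix*.

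At *Nfib*, 1 of the 2 sites covered the main group of transcript starts. *Nfib* site 2 spanned 82504011 to 82507688 (3678 bp) and held 6 of the 8 distinct TSSs of the gene. They were the starts of 10 transcripts, among them Nfib-201 to Nfib-206, which are protein-coding and start 200 kb downstream of the gene-level TSS. Over all transcripts of the gene, the site overlapped 1010 bp of untranslated and 30 bp of coding sequence, and it reached the first exon of Nfib-201. *Nfib* site 1 spanned 82696727 to 82697623 (897 bp) and lay in an intron. It was 8575 bp downstream of the start of Nfib-212, the transcript with the outermost start. The 2 sites were 189038 bp apart, and the next sites outside the gene body were 563354 bp and 712489 bp from it.

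At *Nfix*, *Nfix* site 3 covered 2 starts of protein-coding transcripts and the exon for the DNA-binding domain. It spanned 84770825 to 84775759 (4935 bp) and held the starts of Nfix-203 and Nfix-204, 25975 bp and 26948 bp downstream of the gene-level TSS. It overlapped 535 bp of coding sequence and contained the whole of exon 2, which is 532 bp long. The largest coding exon had this length and was exon 2 in all 4 genes, but no site overlapped it in the other 3. The nearest site edge was 2438 bp from it in *Nfic*, 5242 bp in *Nfib* and 55925 bp in *Nfia*. The starts of Nfix-201, Nfix-202 and Nfix-205 at the 5′ end of *Nfix* were in no site.

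The other *Nfix* sites lay on either side of that promoter. *Nfix* site 2 spanned 84792883 to 84795140 (2258 bp) in the intron behind the 5′ starts, with its midpoint 6332 bp downstream of the gene-level TSS. *Nfix* site 4 spanned 84741159 to 84744325 (3167 bp) in intron 2 of Nfix-204, 14775 bp from the nearest exon. *Nfix* site 5 spanned 84708759 to 84714666 (5908 bp) and overlapped 92 bp of coding sequence in exon 10. It also held the start of the noncoding transcript Nfix-206. *Nfix* site 6 spanned 84706415 to 84708559 (2145 bp), lay wholly in the 3′ UTR in the last exon, exon 11, and held the starts of the noncoding transcripts Nfix-207 and Nfix-208. Sites 5 and 6 were separated by 199 bp. *Nfix* site 1, outside the gene, spanned 84813644 to 84816013 (2370 bp).

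The 3 *Nfic* sites lay toward the 3′ end of the gene, and none held the start of a coding transcript. *Nfic* site 3 spanned 81397703 to 81401251 (3549 bp) and covered 3354 bp of untranslated and 15 bp of coding sequence over all *Nfic* transcripts. It reached the last exon of Nfic-207, exon 10, and held the start of the noncoding transcript Nfic-206. *Nfic* site 2 spanned 81401453 to 81402324 (872 bp) in intron 9 of Nfic-207, 201 bp from site 3. *Nfic* site 1 spanned 81416448 to 81417829 (1382 bp) in intron 2 of Nfic-207, 842 bp from the start of the microRNA gene *Mir1191b*. The nearest start of a protein-coding *Nfic* transcript was 5752 bp from any site midpoint, at Nfic-205, and the starts of Nfic-201, Nfic-202 and Nfic-203 were 9976 to 10048 bp away.

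The 3 *Nfia* sites were all in intron 2 of Nfia-202, the transcript with the longest coding sequence. *Nfia* site 1 spanned 97839538 to 97840651 (1114 bp), 40024 bp from the nearest TSS or exon of the gene. *Nfia* site 2 spanned 97908546 to 97911606 (3061 bp) and covered the start of the noncoding transcript Nfia-206. *Nfia* site 3 spanned 97950709 to 97951954 (1246 bp), 5042 bp from the nearest exon. The 5 coding transcripts that start together, Nfia-201 to Nfia-205, had their starts 62260 to 62486 bp from the nearest site midpoint, and that of Nfia-207 was 29957 bp away. No coding start of *Nfia* was in a site.

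Over the family, 7 of 14 sites had their midpoint within 2 kb of the TSS of any transcript (50%, 95% exact binomial interval 23.0 to 77.0%), against 45.6% of all sites, a share near that background. Of these, *Nfib* site 2 and *Nfix* site 3 held a coding start, and 4 of the other 5 were beside starts of noncoding *Nfi* transcripts. The midpoint of *Nfic* site 1 was beside *Mir1191b* only. There were 4 sites with another site within 1 kb, the pairs in *Nfic* and *Nfix*, or 28.6% (95% exact binomial interval 8.39 to 58.1%) against 4.51% of all sites. These intervals cover the counting error over sites only, and sites of 1 gene are not independent.

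The exact GLI core was present in 4 of the 14 sites (28.6%, 95% exact binomial interval 8.39 to 58.1%), with 1 match in each. Over all sites the share was 12.2%, and over their flanks, regions of the same length that begin 1 site length away, it was 1.83%. Among the 28 flanks of the Nfi sites, 1 held a core. *Nfia*, *Nfib*, *Nfic* and *Nfix* had 1 such site each. The core lay 44 bp from the midpoint in *Nfia* site 1, 151 bp in *Nfib* site 1, 197 bp in *Nfic* site 3 and 752 bp in *Nfix* site 2. The sites over coding starts, *Nfib* site 2 and *Nfix* site 3, held none.

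Wide sites contain more sequence, so the central 500 bp of each site were also searched. The core was there in 3 of 14 Nfi sites (21.4%, 95% exact binomial interval 4.66 to 50.8%) and in 4.83% of all sites. The core of *Nfix* site 2 lay outside this window, and 33.3% of its bases and 42% of the 200 bases printed around it were marked as repeats. *Nfia* site 1 and *Nfib* site 1 were narrow sites, of 1114 and 897 bp, and none of the 9 bases of their cores was marked as a repeat.

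The first 8 bases of the core, GACCACCC, were in 6 Nfi sites, with *Nfia* site 3 (A9C) and *Nfix* site 4 (A9T) added to those above, against 20.4% of all sites. They were in the central 500 bp of 4 sites (28.6%, 95% exact binomial interval 8.39 to 58.1%) and of 7.95% of all sites. In *Nfix* site 4 the match lay 33 bp from the midpoint. With 1 mismatch allowed, 10 of 14 sites held a match, against 64.7% of all sites, and 12 of the 28 flanks did, against 39.1%. This share was near the background. *Nfix* sites 4 and 5 each held 3 matches with 1 mismatch, and *Nfix* site 3 held 1, with C4G, 140 bp from its midpoint. *Nfia* site 2 held 1 match, with C3G, and *Nfib* site 2 held 1, with G1C, at 1220 and 676 bp from their midpoints. *Nfic* sites 1 and 2 and *Nfix* sites 1 and 6 held no match at this level.

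The sites of the family fell into AT-richer and GC-richer ones by gene. GC content was 47.1%, 43.2% and 39.4% in *Nfia* sites 1, 2 and 3, each below the median of all sites, 51.4%. It was 62.7%, 60.4% and 56.6% in *Nfic* sites 1, 2 and 3, and it ranged from 52.5% to 60.0% over the 6 *Nfix* sites, all above that median. The *Nfib* sites were split, with 43.3% in the intronic site 1 and 60.4% in the promoter site 2. The flanks had 38.3 to 41.8% GC at the *Nfia* sites and 56.2 to 60.9% at the *Nfic* sites, so that the surrounding sequence differed in the same direction.

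*Nfib* site 2 was the only Nfi site with a high CpG ratio. Its value was 0.819, higher than in 95.5% of all sites. The next was *Nfix* site 6 with 0.482, and the other 12 sites ranged from 0.162 to 0.338, while the median of all sites was 0.304. *Nfix* site 3, which also covers starts of coding transcripts, had 0.338.

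Sites were wider than the median of all sites (1995 bp) at 9 of 14, and their own median was 2314 bp. The widest were *Nfix* site 5 with 5908 bp and *Nfix* site 3 with 4935 bp, wider than 98.1% and 95.6% of all sites. All 6 *Nfix* sites were above the median width. The narrowest were *Nfic* site 2 with 872 bp and *Nfib* site 1 with 897 bp.

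**Figure D3:**
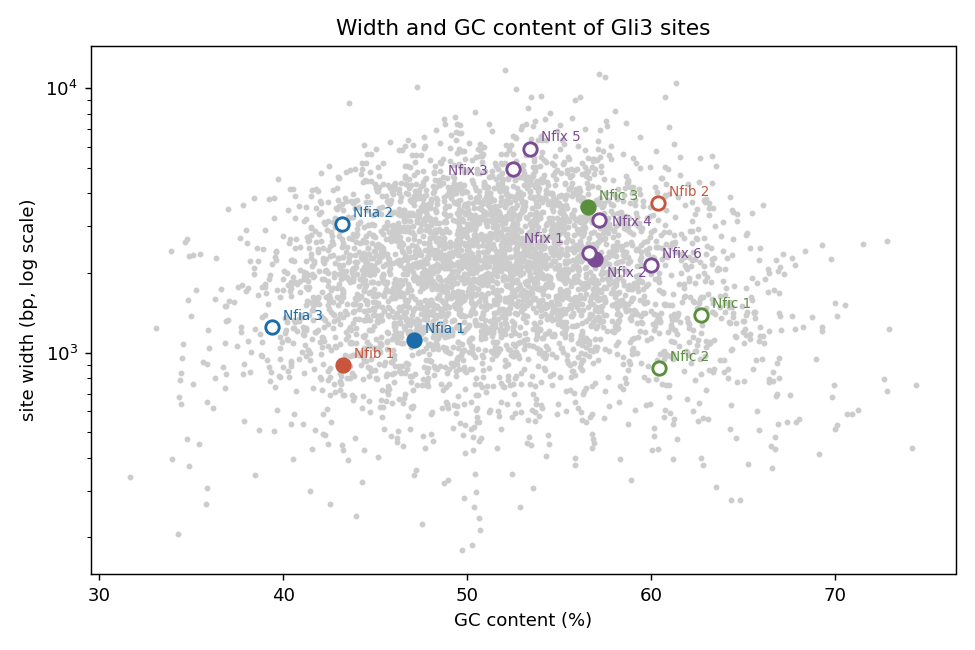
GC content is on the x axis in percent and site width in bp on the y axis on a log scale, with the 4099 sites in gray and the 14 Nfi sites in color by gene, filled where they hold an exact GLI core. The *Nfia* sites lie at 39.4 to 47.1% GC and the *Nfic* sites at 56.6 to 62.7%, and *Nfix* sites 3 and 5 are the highest of the Nfi points.

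Motifs of other factor families were counted on both strands in the same way. The NFI palindrome, TTGGC and GCCAA with 5 bases between them, is the sequence that dimers of the family bind, and it was in none of the 14 sites and in 0.439% of all sites. The half-site TTGGCA was in the central 500 bp of 5 Nfi sites (95% exact binomial interval 12.8 to 64.9%) and of 27.4% of all sites. The SP motif GGGCGGGG was in the central 500 bp of 5 Nfi sites (95% exact binomial interval 12.8 to 64.9%), against 13.7% of all sites, and *Nfib* site 2 held 5 matches over its length. The bHLH motif CAGCTG was in 3 against 28.5%, the SOX motif ACAATG in 3 against 18.1%, and the homeodomain motif TAATTA in 2 against 12.1%. Among the 32851 promoter windows of the RefSeq table (250 bases before to 50 after a start, GRCm38), the GLI core was in 0.253% and the SP motif in 17.6%. The table held 6 windows for *Nfia*, *Nfic* and *Nfix*, none of them with a GLI core. The *Nfia* window (chr4:97581693-97581992) lay upstream of the gene-level TSS used here, at 97772734. The site at chr4:97668934-97670504, which the rule did not take, lay between them, so that the count, length and density of *Nfia* depend on the annotated start.

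**Figure D4:**
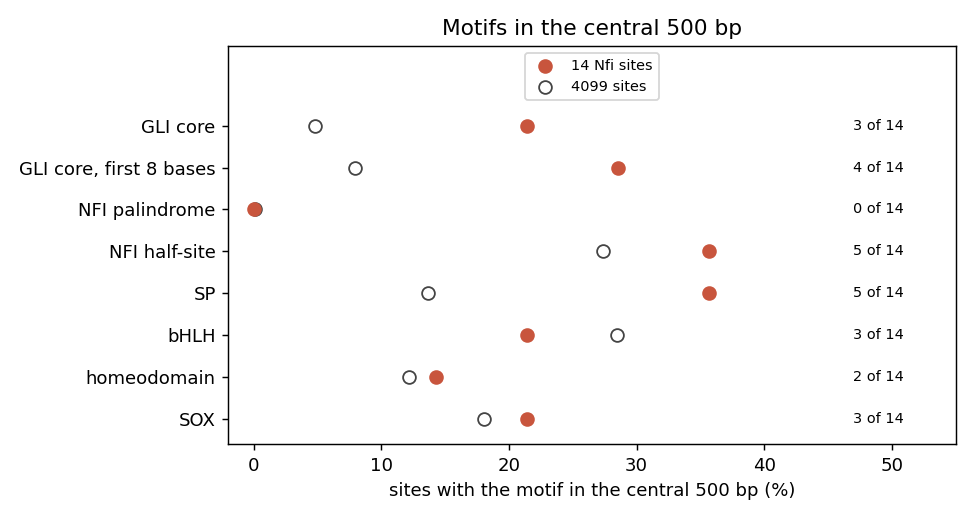
The percent of sites with each motif in the central 500 bp is on the x axis, filled for the 14 Nfi sites and open for the 4099 sites, with the count of Nfi sites at the right. The GLI core was in 3 of 14 Nfi sites against 4.83% of all sites, and the SP motif in 5 of 14 against 13.7%.

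The Nfi sites shared no longer sequence with each other. In 91 pairs of sites compared with blastn, 0 gave a local alignment at an E value of 1e-5 or less, on either strand.

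Genes that act with the family were counted by the same rule. Of 5 partners and regulators, 4 had a Gli3 site. *Sox9*, which induces and cooperates with Nfia, had 1 site that covered part of the gene, 2396 bp downstream of the TSS. *Pou3f2*, which encodes the neural POU factor Brn2, had 1 site, over its TSS. *Zbtb20*, a regulator of astrocyte production, had 3 sites, all inside the gene and 410688 bp or more downstream of the gene-level TSS, 1 of them 2186 bp from the start of another coding transcript. *Runx2* had 2 sites, inside the gene, and *Atf3* had none within the rule. With 37.4% of coding genes having a site, 5 genes are too few to set this share apart.

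Of 12 genes known as Nfi targets or as astrocyte genes, 5 had a site, near the 37.4% of coding genes. *Hes1*, a Notch effector repressed by Nfia, had 5 sites, 1 of them over its TSS. *Slc1a3*, which encodes the glutamate transporter Glast, had 3 sites, all with the midpoint outside the gene. The nearest was 70858 bp from the TSS, and 1 of the 3 held an exact core. *Ezh2*, a histone methyltransferase gene repressed by Nfib, had 7 sites, but all were outside the gene, 55814 to 90965 bp from its TSS, and 1 of them held an exact core. *Aldh1l1* had 2 sites, 1 inside the gene and 1 upstream of it, 130 bp from a coding start of another gene. *Mmd2* had 1 site, inside the gene. *Gfap*, *Fabp7*, *Aqp4*, *S100b*, *Zcchc24*, *Insc* and *Bbx* had none within the rule.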

How the data were processed

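Gli3 ChIP-seq of wild-type cortices at embryonic day 15 was analysed from 1 list of 4114 sites. Per the file headers and the labels, the authors aligned paired reads, with 85 bases from each end, to the mm10 genome by Bowtie2 after a repeat filter. The sites are the narrow peaks that an irreproducible discovery rate (IDR) analysis over the ChIP libraries returned as optimal. SAMtools and MACS2 are named in the submitters' processing notes, without thresholds. The deposited values are positions, with no count, height or p-value. Site widths and numbers depend on those settings.

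Starts were converted to 1-based coordinates. Genes came from GENCODE M21 and sequence from GRCm38.p6, whose chromosomes are those of mm10. The 15 sites on scaffolds were left out of the comparisons. Motifs were matched exactly on either strand, and the CpG ratio is the number of CpG, times length, over the product of C and G. Repeats are the lower-case bases of the assembly. Core contexts have 29 bases. The members and gene lists were chosen with earlier results of these data known. Named were the 4 Nfi genes, other genes with a TSS within 2 kb of an Nfi site, the partner and target list, and the coding genes with the most sites. *Dand5*, *E130114P18Rik*, *Smim24*, *Lyl1* and *G430095P16Rik* were named after the values were seen. Motif counting and site assignment were tested on sequences and sites with known answers. Sites were compared with each other by blastn 2.17.0+, sequence was read with samtools 1.23.1 and pysam 0.24.0, and exact binomial intervals came from scipy 1.17.1 under Python 3.11.15. Some items are not reported here.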

Additional observations from a re-analysis of the deposited data

How the results depend on the processing

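No paired analysis was possible because the libraries were joined in 1 list, and for the same reason no replicate could be left out. The 14 Nfi sites were 12 to 19 with a 50 kb window, any overlap, the gene body alone, close sites joined, or the TSS of any transcript, which gave 5 at *Nfic* and 9 at *Nfix*. A 200 kb window gave 22 sites, with 6 at *Nfic* and 10 at *Nfix*, and sites whose nearest coding gene-level TSS was the Nfi gene numbered 4. That last rule left 0 sites at *Nfia* and *Nfic*, because the gene-level TSS of *E130114P18Rik* was 62016 bp and that of *Nfia* 67360 bp from *Nfia* site 1, and because *Smim24* was nearest to the *Nfic* sites. It left 2 at *Nfib* and 2 at *Nfix*, where *Dand5*, *G430095P16Rik* and *Lyl1* took the others. The rule uses only the outermost start of each gene. With the starts of all coding transcripts, the nearest one belonged to the Nfi gene at 9 of the 14 sites. Among these were all *Nfia* sites and *Nfic* sites 1 and 2, the latter 9498 and 5752 bp from Nfic-205. *Nfix* site 4 was 19735 bp from a coding start of *G430095P16Rik* and 30654 bp from the nearest of *Nfix*. For *Nfix* sites 5 and 6 these distances were 10256 and 6030 bp to *Lyl1*, against 61684 and 65909 bp to *Nfix*. *Nfic* site 3 was 5850 bp from *Smim24* and 8164 bp from Nfic-205, and *Nfix* site 1 was nearer to *Dand5*. The 7 sites within 2 kb of a TSS fell to 4 with an upstream window and to 2 with coding transcripts only. The GLI core was in 10 sites with 1 mismatch. By density, 12.6% of coding genes equaled or exceeded *Nfia* and 35.7% *Nfib*, against 4.33% and 13.3% by count. Depth and replicate spread were not part of the list.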
